A study of Homo sapiens with 12 samples.

Results

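YAP1 and WWTR1, the gene of the TAZ protein, were described with 8 genes known as their targets or partners in HK-2 cells exposed to CsA or to its vehicle control. The 10 genes, YAP1, WWTR1, CCN1, CCN2, ANKRD1, AMOTL1, AMOTL2, LATS2, AXL and AJUBA, were taken from a list of names and not by their values. They stood among 19775 gene symbols on the arrays and had 25 of the 54675 probe sets. Where a gene had several probe sets, the brightest on average over the 12 arrays was read. Genes above 4 on the log2 scale on 3 or more of the 12 arrays were tested, which left 10650 genes and 9 of the 10 listed ones, all but ANKRD1.

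The 12 Affymetrix arrays measured mRNA in 4 groups of 3 biological replicates, CsA and control after 48 h of exposure and CsA and control after 12 h. The name CsA is taken to mean cyclosporine A, a drug against transplant rejection that blocks calcineurin and can injure the kidney, and its dose is not given in the labels. HK-2 is 1 immortalised line from human proximal tubule. All 4 groups were grown in a medium with EGF, hydrocortisone, insulin and transferrin and were exposed close to confluence, per the labels' protocols. Nothing beyond the words biological replicate says what separates the cultures, so the p-values measure the spread between these arrays.

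YAP and TAZ are coactivators that carry no DNA-binding domain of their own and act mainly through TEAD transcription factors. The Hippo kinases LATS1 and LATS2 phosphorylate them and so keep them in the cytoplasm, and cell crowding, cell shape and actin tension set how active these kinases are. In kidney tubule cells the targets CCN1 and CCN2 are known as secreted matrix proteins made after injury, and several targets, among them AMOTL2 and LATS2, feed back to hold YAP and TAZ in check.

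The promoters of CCN2 and ANKRD1 are shown because they held the most copies of the TEAD motif among the listed genes, and CCN2 is the target whose arrays spread furthest. The motif searched was GGAATG on both strands, counted with overlaps, in the 250 bases before each start site in RefSeq's promoter table for GRCh38.p14. Of the 10 genes 9 matched that table, and 6 of their 13 windows, in 6 genes, held the motif, against 11.9% of all 35116 windows. The CCN2 window lies at chr6:131951373-131951622 and the ANKRD1 window at chr10:90921088-90921337, both written 5′ to 3′ on the minus strand. Capitals mark the motif.
CCN2: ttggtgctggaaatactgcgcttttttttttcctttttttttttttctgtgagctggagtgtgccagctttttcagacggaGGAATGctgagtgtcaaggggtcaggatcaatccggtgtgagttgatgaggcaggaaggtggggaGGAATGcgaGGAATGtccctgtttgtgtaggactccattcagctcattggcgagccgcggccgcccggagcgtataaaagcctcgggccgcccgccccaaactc
ANKRD1: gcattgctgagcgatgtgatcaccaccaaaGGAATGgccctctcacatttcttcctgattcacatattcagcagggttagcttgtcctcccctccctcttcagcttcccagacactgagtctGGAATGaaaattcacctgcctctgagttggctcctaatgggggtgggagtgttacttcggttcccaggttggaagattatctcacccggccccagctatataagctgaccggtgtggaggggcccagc
The CCN2 window held 3 copies, beginning at positions -169, -104 and -95 from the start site, and 0.0826% of all windows held 3 or more. The ANKRD1 window held 2, beginning at -220 and -128, and 0.94% of all windows held 2 or more. YAP1, AMOTL2, AXL and AJUBA had 1 copy each, and AMOTL2, AXL and AJUBA each also had another window without the motif. A match of these letters is a description of the sequence and says nothing on binding in HK-2 cells.

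The arrays of a group correlated at 0.997 or above at 12 h, at 0.991 or above in control 48 h and at 0.982 or above in CsA 48 h. The 8 markers of tubular epithelium that were measured all passed the filter, with KRT18 between 12.44 and 13.20 and EPCAM between 12.50 and 13.34 over the 12 arrays. They were not all high, since CDH1 lay between 5.71 and 8.72 and LHX1 between 3.50 and 6.37, under 4 on some arrays. Of 10 proximal tubule markers 0 passed, and 9 were never above 4. LRP2, the endocytic receptor megalin, lay between 2.99 and 3.32, so the defining receptors and transporters of that segment were at or near the bottom of the scale. Of leukocyte markers 0 of 4 measured passed, and of endothelial markers 1 of 5.

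YAP1, the coactivator, stayed between 11.06 and 11.61 on the 12 arrays. It was at 11.23, 11.47 and 11.35 in CsA 48 h, 11.26, 11.61 and 11.29 in control 48 h, 11.10, 11.16 and 11.06 in CsA 12 h, and 11.06, 11.21 and 11.14 in control 12 h (log2, replicates 1 to 3). All 48 h arrays lay above all 12 h arrays of the same treatment, by a mean of 0.24 under CsA (SE 0.12) and 0.25 in control (SE 0.12). Neither difference passed limma's moderated test with Benjamini-Hochberg adjustment over 10650 genes (adjusted p = 0.17 under CsA and 0.13 in control). CsA and control differed by -0.04 at 48 h (95% interval -0.29 to 0.22) and by -0.03 at 12 h (-0.29 to 0.22). On the other YAP1 probe sets past the filter CsA and control differed by -0.24 and 0.03 at 48 h. Their time differences were 0.12 and 0.29 under CsA and 0.29 and 0.24 in control.

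WWTR1, whose product TAZ is the close relative of YAP, was lower and more spread at 48 h. It was at 10.20, 11.25 and 12.31 in CsA 48 h and at 10.57, 11.35 and 11.86 in control 48 h, against 12.31, 12.36 and 12.32 in CsA 12 h and 12.44, 12.37 and 12.37 in control 12 h. The 48 h arrays lay below the 12 h arrays of the same treatment without overlap, although CsA 48 h replicate 3 and the lowest CsA 12 h array were equal to 2 decimals. On RNA from whole cultures, fewer cells with a transcript and less of it per cell cannot be told apart. The difference was -1.08 under CsA (SE 0.45, adjusted p = 0.13 by limma) and -1.13 in control (SE 0.45, adjusted p = 0.086), and neither passed the threshold of 0.05. Its 2 other probe sets differed by more, by -1.48 and -1.76 under CsA and by -1.63 and -1.87 in control.

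WWTR1 was called in 3 of 27 alternatives under CsA and in 7 of 27 in control. With the mean of its 3 probe sets the difference was -1.44 under CsA (adjusted p = 0.0499) and -1.55 in control (adjusted p = 0.027), and both passed in limma. Without CsA 48 h replicate 3 the chosen probe set fell by 1.61 under CsA (adjusted p = 0.0083). In control it passed without control 48 h replicate 3 (-1.43, adjusted p = 0.0498). It also passed there when an array outside the comparison was left out, CsA 48 h replicate 1 (adjusted p = 0.026) or replicate 3 (adjusted p = 0.020), which moves the shared spread and not the difference.

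**Figure D1:**
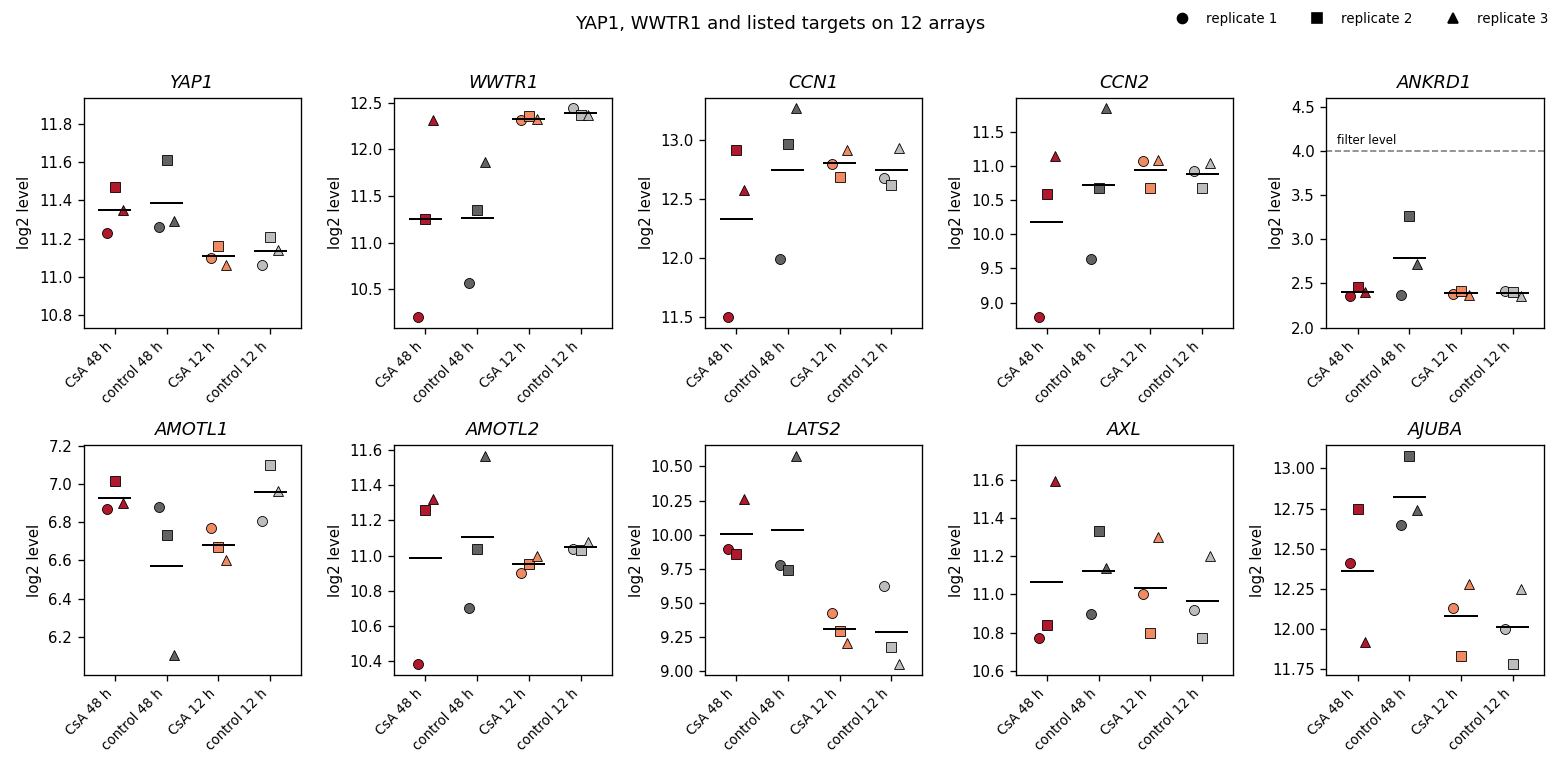
Log2 level of each gene on every array, with 1 panel a gene and its own axis, the CsA and control groups of 48 h left of those of 12 h, symbols for replicates 1 to 3 and a bar at the group mean. WWTR1 lies lower and wider at 48 h than at 12 h, and LATS2 lies higher at 48 h in both treatments. AJUBA lies higher at 48 h in control without overlap, and all ANKRD1 values lie under the filter level of 4.

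CCN1, a secreted matrix protein also known as CYR61, showed no time difference beyond its spread. It was at 11.50, 12.92 and 12.58 in CsA 48 h, 11.99, 12.97 and 13.27 in control 48 h, 12.80, 12.69 and 12.92 in CsA 12 h, and 12.68, 12.62 and 12.93 in control 12 h. Replicate 1 was lowest in both 48 h groups, and the groups overlapped in every comparison. The 48 h against 12 h difference was -0.47 under CsA (SE 0.37, adjusted p = 0.40 by limma) and 1.1e-04 in control (95% interval -0.83 to 0.83). The other CCN1 probe set past the filter differed by -0.65 under CsA and -0.15 in control.

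CCN2, the connective tissue growth factor, spread the most of the listed genes at 48 h. It was at 8.79, 10.59 and 11.14 in CsA 48 h and at 9.63, 10.68 and 11.84 in control 48 h, against 11.07, 10.68 and 11.08 in CsA 12 h and 10.93, 10.67 and 11.04 in control 12 h. Its SD was 1.23 in CsA 48 h and 1.10 in control 48 h, against 0.22 in CsA 12 h and 0.19 in control 12 h (n = 3 each). The difference between times was -0.77 under CsA (SE 0.61, adjusted p = 0.40 by limma) and -0.16 in control (SE 0.61, adjusted p = 0.86), inside that spread.

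ANKRD1, a nuclear ankyrin repeat protein of stressed muscle that is used as a YAP readout, stayed under 4 on all 12 arrays. It was at 2.36, 2.46 and 2.40 in CsA 48 h, 2.37, 3.26 and 2.72 in control 48 h, 2.38, 2.41 and 2.37 in CsA 12 h, and 2.42, 2.40 and 2.35 in control 12 h. The highest value, 3.26, was that of control 48 h replicate 2. Values this low were not tested, and a level too low for this probe set cannot be told apart from a gene that is off.

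The angiomotin-like proteins AMOTL1 and AMOTL2 tether YAP and TAZ at junctions. AMOTL1 was at 6.87, 7.01 and 6.90 in CsA 48 h, 6.88, 6.73 and 6.10 in control 48 h, 6.77, 6.67 and 6.60 in CsA 12 h, and 6.81, 7.10 and 6.96 in control 12 h. CsA 48 h lay above CsA 12 h on every array, by 0.25 (SE 0.18, adjusted p = 0.36 by limma), while control 48 h stood at -0.38 against control 12 h (SE 0.18, adjusted p = 0.13) with overlapping arrays. The other AMOTL1 probe set past the filter, with a mean of 4.35 over the 12 arrays, differed by 0.02 under CsA and -0.13 in control. AMOTL2 was at 10.38, 11.26 and 11.32 in CsA 48 h, 10.70, 11.04 and 11.57 in control 48 h, 10.90, 10.95 and 11.00 in CsA 12 h, and 11.04, 11.03 and 11.08 in control 12 h. Its time differences, 0.04 under CsA and 0.05 in control (SE 0.26 each), were well inside the spread at 48 h.

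LATS2, the Hippo kinase that inactivates YAP and TAZ and is itself a target, was higher at 48 h. It was at 9.90, 9.86 and 10.26 in CsA 48 h and at 9.78, 9.74 and 10.58 in control 48 h, against 9.42, 9.30 and 9.21 in CsA 12 h and 9.63, 9.18 and 9.05 in control 12 h. The arrays of the 2 times did not overlap in either treatment. In control it rose 1.68-fold (log2 0.75, SE 0.23, adjusted p = 0.039 by limma), to 10.03 ± 0.47 at 48 h against 9.29 ± 0.30 at 12 h (SD, n = 3). Under CsA the difference was 0.69 (SE 0.23) and missed the threshold (adjusted p = 0.070).

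The LATS2 call in control was near its threshold and was lost in 16 of 27 alternatives, with adjusted p between 0.026 and 0.17 over all of them. Among single arrays it was lost without control 48 h replicate 1 (0.87, adjusted p = 0.052) or replicate 3 (0.47, adjusted p = 0.077), and without control 12 h replicate 2 (0.69, adjusted p = 0.11) or replicate 3 (0.63, adjusted p = 0.13). Leaving out CsA 12 h replicate 1, 2 or 3 gave adjusted p = 0.056, 0.057 and 0.055 by limma at the same difference. Under CsA the gene was called without control 48 h replicate 3 (adjusted p = 0.026). Of its 2 other probe sets past the filter, 1 differed by 0.99 under CsA and 0.88 in control and the other by 0.15 and -0.04.

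AXL, a receptor tyrosine kinase for the ligand GAS6, was not called in either time comparison. It was at 10.77, 10.84 and 11.59 in CsA 48 h, 10.90, 11.33 and 11.14 in control 48 h, 11.00, 10.80 and 11.30 in CsA 12 h, and 10.92, 10.77 and 11.20 in control 12 h. The time differences were 0.03 under CsA (95% interval -0.47 to 0.54) and 0.16 in control (-0.35 to 0.66). Its other probe set past the filter differed by more, by 0.54 under CsA and 0.51 in control. With the mean of both, AXL was at 0.29 under CsA (adjusted p = 0.25 by limma) and 0.33 in control (adjusted p = 0.16), and neither passed.

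AJUBA, a LIM domain scaffold at junctions that binds LATS kinases and limits their action on YAP, was higher at 48 h in control. It was at 12.41, 12.75 and 11.92 in CsA 48 h and at 12.65, 13.08 and 12.74 in control 48 h, against 12.13, 11.83 and 12.28 in CsA 12 h and 12.00, 11.78 and 12.25 in control 12 h. In control it rose 1.76-fold (log2 0.81, SE 0.22, adjusted p = 0.024 by limma), to 12.82 ± 0.23 at 48 h against 12.01 ± 0.23 at 12 h (SD, n = 3), with no overlap. Under CsA the difference was 0.28 (SE 0.22, adjusted p = 0.39), and CsA 48 h replicate 3 lay within the 12 h values. Its 2 other probe sets past the filter differed by 0.13 and 0.77 under CsA and by 0.67 and 1.09 in control.

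The AJUBA call in control was lost in 9 of 27 alternatives, with adjusted p between 0.0064 and 0.0998 over all of them by limma. Among single arrays it was lost without control 48 h replicate 2 (0.69, adjusted p = 0.085) and without control 12 h replicate 1 (0.81, adjusted p = 0.065) or replicate 2 (0.70, adjusted p = 0.084).

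Counted together, the time in culture was called for 0 of 9 listed genes under CsA and for 2 of 9 in control, LATS2 and AJUBA, both higher. Among all 10650 genes limma called 14.0% under CsA, 6.64% higher and 7.41% lower, and 25.8% in control, 12.4% higher and 13.5% lower. The share under CsA depended on the arrays fitted. A fit of the 6 arrays compared alone called 30 of 10650 genes, and 0 with their replicate block. Without CsA 48 h replicate 3 limma called 3923 of 10650 genes under CsA, and 1 of 9 listed genes. In control it then called 4044 of 10650, and 3 of 9 listed genes. Why these counts moved was not tested. In the fit of all 12 arrays the listed genes' share in control was near that of all genes. At an unadjusted p under 0.05 there were 2 of 9 listed genes under CsA and 3 of 9 in control, against 3511 and 4416 of all 10650. The 48 h and 12 h arrays did not overlap for 4 of 9 genes under CsA, namely YAP1, AMOTL1, LATS2 and WWTR1, against 34.7% of all genes. In control they did not overlap for 4 of 9, namely YAP1, LATS2, AJUBA and WWTR1, against 49.9%. The median difference of the 9 genes was 0.04 under CsA and 0.05 in control, against 0.01 and 0.01 for all genes. The 2 time comparisons share no array but were tested with 1 shared estimate of the spread.

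**Figure D2:**
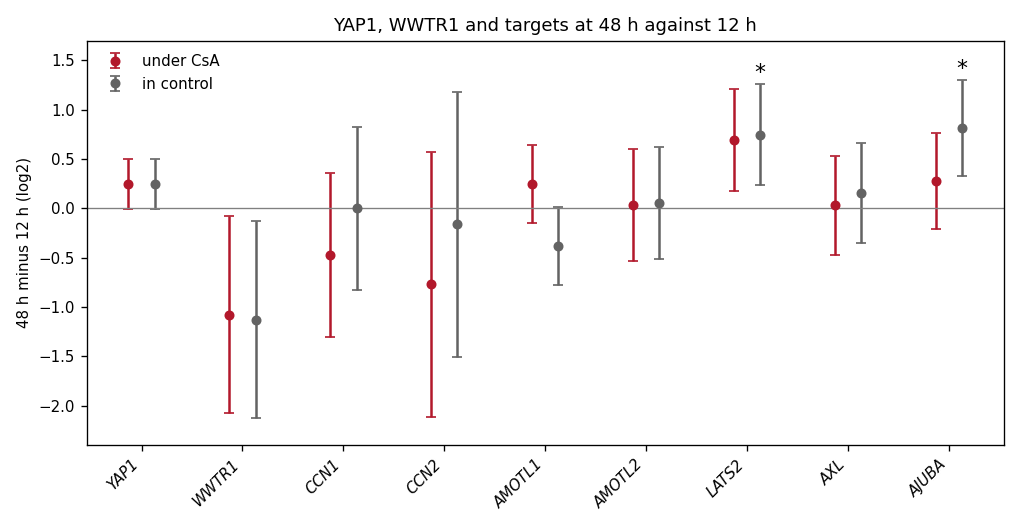
Log2 difference of 48 h minus 12 h for the 9 tested genes (points, with 95% intervals from limma), under CsA and in control, with a star where the adjusted p is under 0.05. Stars stand over LATS2 and AJUBA in control, and WWTR1 lies at -1.08 under CsA and -1.13 in control.

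The comparison of CsA with control asked whether the drug moved the same genes. It used the same arrays as the time comparison. None of the 9 listed genes was called at either time. At 48 h limma called 0 of 9 listed genes and 0% of all genes, with 0 of 9 and 263 of 10650 at an unadjusted p under 0.05. At 12 h it called 0 of 9 and again 0% of all genes, with 0 of 9 and 138 of 10650 at an unadjusted p under 0.05. This fit shares 1 spread over both times, and the arrays spread more at 48 h. Fitted on the 12 h arrays alone, limma had 1 of 9 listed genes and 695 of 10650 at an unadjusted p under 0.05. It called 0 of 9 and 1 of 10650 there. On the 48 h arrays alone 0 of 9 and 104 of 10650 were at that unadjusted level. Arrays of CsA and control that share a time and a replicate number moved together around the group means, so a paired fit, with a replicate block, was also made. It called 0 of 9 listed genes and 0% of all genes at 48 h. At 12 h it called 0 of 9 listed genes and 0.0282% of all genes.

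Within the pairs, CCN2, CCN1 and AJUBA lay lower under CsA at 48 h in all 3 pairs. CCN2 differed by -0.84, -0.08 and -0.70 in pairs 1 to 3 (mean -0.54, 95% interval -1.89 to 0.80 without the pairs). Pairs 1 and 3 carried this difference and pair 2 was near 0. With the replicate block its standard error fell to 0.14, against 0.61 without it, and its unadjusted p was 0.0069 (adjusted p = 0.36 by limma). That fit shared 1 spread over both times, and the CCN2 pair differences had an SD of 0.40 at 48 h and 0.06 at 12 h. The 12 h arrays thus set part of the error, here and for CCN1 and AJUBA. CCN1 differed by -0.49, -0.05 and -0.69 (unadjusted p = 0.012 and adjusted p = 0.37 by limma with the block). AJUBA differed by -0.24, -0.33 and -0.82 (mean -0.47, 95% interval -0.95 to 0.02 without the pairs), with an unadjusted p of 0.0056 (adjusted p = 0.36 by limma with the block). These were the 3 of 9 listed genes at an unadjusted p under 0.05 in the paired fit, against 1308 of 10650 genes.

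The other listed genes had smaller or mixed pair differences at 48 h. AMOTL1 differed by -0.01, 0.28 and 0.79 in pairs 1 to 3 (mean 0.36, SE 0.18 without the block, adjusted p = 0.42 by limma with it). WWTR1 differed by -0.37, -0.10 and 0.45, AXL by -0.14, -0.48 and 0.45, and AMOTL2 by -0.32, 0.22 and -0.25. LATS2 differed by 0.12, 0.12 and -0.32 and YAP1 by -0.03, -0.15 and 0.06. In these 6 genes the sign was not shared by the 3 pairs. ANKRD1, under the filter, differed by -0.01, -0.80 and -0.32. CsA and control arrays overlapped for all 9 tested genes at 48 h, against groups without overlap for 4.45% of all genes.

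At 12 h the pair differences of the 9 tested genes lay between -0.43 and 0.16. CCN2 differed by 0.14, 0.02 and 0.04, AJUBA by 0.13, 0.05 and 0.03 and AXL by 0.08, 0.03 and 0.10, each above 0 in all 3 pairs. For AJUBA and AXL this holds for the probe set read. The means of other probe sets past the filter were -0.16 and 0.11 for AJUBA and -0.07 for AXL. AMOTL1 differed by -0.04, -0.43 and -0.36 and AMOTL2 by -0.14, -0.08 and -0.08, each below 0 in all 3. WWTR1 also lay below 0 in all 3, by -0.13, -0.0064 and -0.04. The mean differences of the 9 tested genes ran from -0.28 for AMOTL1 (SE 0.18) to 0.07. CsA arrays lay below control arrays without overlap for 3 of 9 genes, WWTR1, AMOTL1 and AMOTL2, against 11.9% of all genes without overlap in either direction.

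**Figure D3:**
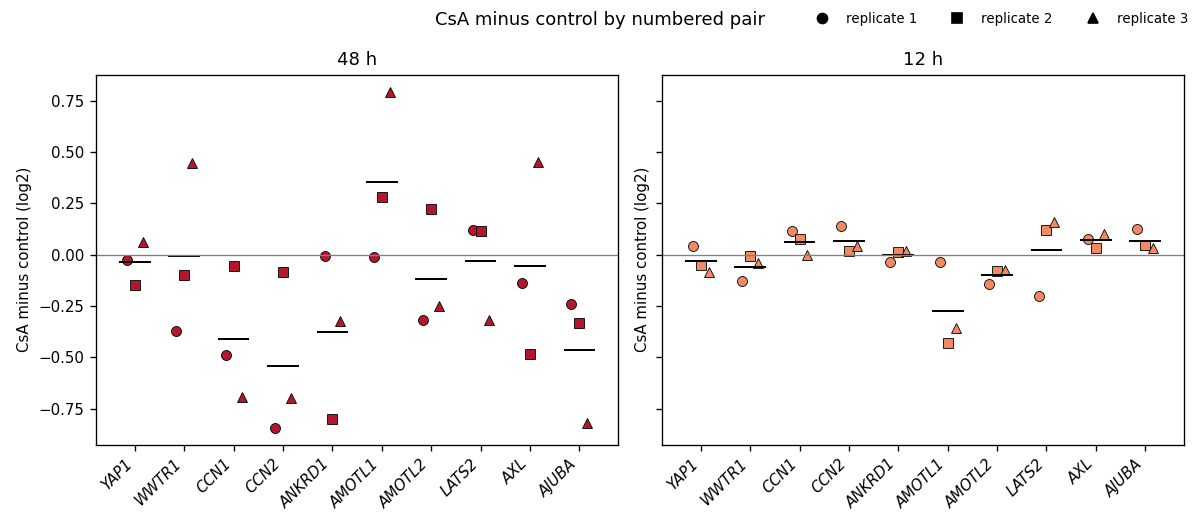
Log2 difference of CsA minus control in each numbered pair (symbols) with the mean (bar), for the 10 genes at 48 h and at 12 h on the same axis. At 48 h the pairs of CCN2 lie at -0.84, -0.08 and -0.70, while at 12 h they lie between 0.02 and 0.14.

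A test of whether the CsA effect differed between 48 h and 12 h called 0 of 9 listed genes and 0% of all genes, without the block and with it. The difference of effects was -0.61 for CCN2 (SE 0.86), -0.53 for AJUBA (SE 0.31) and -0.47 for CCN1. AMOTL1 had 0.63 (SE 0.25, unadjusted p = 0.030, adjusted p = 1.00 by limma), the 1 listed gene at an unadjusted p under 0.05 against 164 of 10650. On the other AMOTL1 probe set past the filter, CsA minus control was 0.04 at 48 h and -0.11 at 12 h. With the block 4 of 9 listed genes were at an unadjusted p under 0.05, against 967 of 10650 genes, and the adjusted p was 0.54 for CCN2 and for AJUBA. The call of AJUBA with time in control and its absence under CsA are therefore not shown to differ.

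Most listed genes varied more between the replicates at 48 h than at 12 h. Exceptions were AJUBA and AXL in control and AMOTL1 under CsA. The median SD of the 9 listed genes tested, over 3 arrays, was 0.45 in CsA 48 h and 0.44 in control 48 h. At 12 h it was 0.11 in CsA and 0.16 in control. For all tested genes it was 0.29 in CsA 48 h and 0.21 in control 48 h, against 0.12 in each 12 h group. The arrays with the same number shared this spread. Replicate 1 was the lowest in CsA 48 h and in control 48 h alike for YAP1, WWTR1, CCN1, CCN2, AMOTL2 and AXL. In all, 7 of 9 genes had the same lowest number in both 48 h groups and 6 of 9 the same highest, and at 12 h these counts were 5 and 7. What a number stands for in the culture is not in the labels and was not tested.

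**Figure D4:**
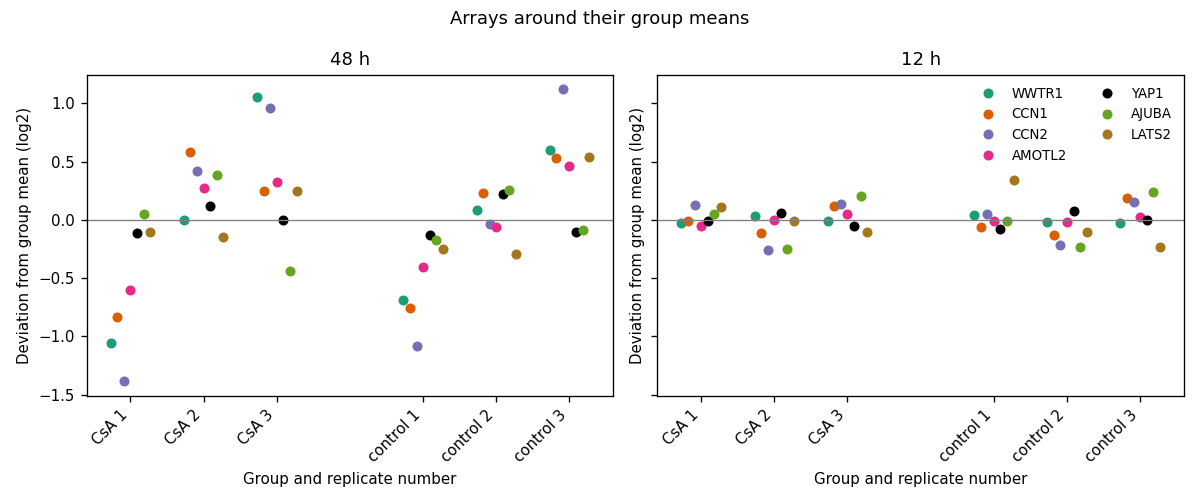
Deviation of each array from its group mean (log2) for 7 of the listed genes, with arrays by treatment and replicate number and 1 panel a time. At 48 h replicate 1 lies below 0 for WWTR1, CCN1, CCN2 and AMOTL2 in CsA and in control. At 12 h the points lie between -0.26 and 0.34.

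Across the 12 arrays CCN1 and CCN2 varied together (Pearson's r = 0.93), as did CCN2 with AMOTL2 (0.88), CCN1 with AMOTL2 (0.85) and WWTR1 with CCN2 (0.81). These are descriptions over 12 arrays that share 4 groups and numbered pairs, without a test. The tested genes most like CCN2 were ZNF180 (0.97), the small leucine-rich proteoglycan LUM (0.97), the transcription factor CREB5 (0.95) and the protease urokinase, PLAU (0.95). Those most like CCN1 were the metalloprotease ADAMTS1 (0.96), the junction protein CGNL1 (0.94), the pentraxin PTX3 (0.94) and CCN2 (0.93). YAP1 was most like the adhesion protein NECTIN3 (0.96), FNBP1L (0.94), YTHDF3 (0.94) and HOMER3 (0.94). WWTR1 was most like MCM6, a subunit of the replicative helicase (0.99), POLE2, a DNA polymerase subunit (0.99), CPSF6 (0.99) and the chromatin protein DEK (0.99), which were chosen after their values were seen. MCM6 was at 8.96, 10.09 and 11.47 in CsA 48 h and at 9.58, 10.27 and 10.73 in control 48 h, against values between 11.34 and 11.46 on the 12 h arrays, so replicate 1 was its lowest and replicate 3 its highest 48 h array in each treatment, as for WWTR1.

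LUM is also in a list of 7 fibroblast markers. Of these 3 passed the filter, COL1A1, DCN and LUM, while COL1A2, COL3A1, PDGFRA and PDGFRB were never above 4. The log2 of the list's summed level lay between 9.27 and 10.97 in CsA 48 h, 9.55 and 10.91 in control 48 h, 10.20 and 10.71 in CsA 12 h, and 10.09 and 10.74 in control 12 h. Its part in the spread of CCN2 was not tested.

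The rest of the pathway was read from 5 lists of textbook members, with counts by limma over all genes, whose median difference with time was 0.01 under CsA and in control. Among 15 Hippo kinases and scaffolds, 13 of them tested, 0 rose and 1 fell with time under CsA, and 1 rose and 2 fell in control (medians -0.02 and -0.05). Among all genes 14.0% were called under CsA and 25.8% in control, so the list's share in control was near that of all genes. MAP4K4, a kinase that activates LATS, fell by 0.66 under CsA (SE 0.14, adjusted p = 0.018 by limma) and by 0.71 in control (SE 0.14, adjusted p = 0.0079). In control LATS1, the close relative of LATS2, rose by 0.57 (SE 0.15, adjusted p = 0.020) and NF2, the scaffold merlin, fell by 0.94 (SE 0.31, adjusted p = 0.0495). With the mean of its probe sets NF2 was at -0.09 (adjusted p = 0.60). Among 8 TEAD factors and VGLL partners, 5 of them tested, 0 passed under CsA and 1 fell in control, TEAD2 (-0.77, SE 0.24, adjusted p = 0.039), with medians of -0.23 and -0.42. With the mean of its probe sets TEAD2 was at -0.29 and was not called.

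Of 15 other YAP and TAZ target genes, 1 rose and 1 fell under CsA, and 2 rose and 3 fell in control, with medians of -0.22 and -0.26. MYOF, a membrane repair protein, rose by 0.59 under CsA (SE 0.09, adjusted p = 0.0055 by limma) and by 0.74 in control (SE 0.09, adjusted p = 0.0013). F3, the coagulation receptor tissue factor, fell by 1.44 under CsA (SE 0.24, adjusted p = 0.0066) and by 1.54 in control (SE 0.24, adjusted p = 0.0027). In control GADD45A, a growth arrest gene that p53 also drives, rose 4.66-fold (log2 2.22, SE 0.41, adjusted p = 0.0058). The ectonucleotidase NT5E fell by 1.68 (adjusted p = 0.036, and by 1.06 with the mean of its probe sets) and the matrix protein CCDC80 by 1.62 (adjusted p = 0.039). These counts lie near the shares of all genes called, 14.0% under CsA and 25.8% in control.

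Over all genes limma called 14.0% with time under CsA, 6.64% higher and 7.41% lower. In control it called 25.8%, 12.4% higher and 13.5% lower. The 12 tested genes of the actin cytoskeleton and of SRF, the actin-responsive transcription factor, had medians of -0.64 under CsA and -0.71 in control. Of these genes 0 passed under CsA and 4 fell in control. Those 4 were the myosin light chain MYL9 (-1.23, SE 0.38), the focal adhesion protein ZYX (-0.97, SE 0.29), tropomyosin TPM1 (-0.84, SE 0.27) and calponin CNN2 (-0.58, SE 0.17), with adjusted p between 0.032 and 0.047. Under CsA MYL9 was at -1.22 (SE 0.38, adjusted p = 0.055) and ZYX at -0.93 (SE 0.29, adjusted p = 0.058). Of 6 relatives and ligands of the listed genes, 0 passed under CsA and 3 rose in control (medians 0.26 and 0.28), while 6.64% of all genes were called higher under CsA and 12.4% in control. They were CCN3, a further matrix protein of the CCN family (0.88, SE 0.23, adjusted p = 0.022), MERTK, a receptor related to AXL (1.43, SE 0.47, adjusted p = 0.049), and its ligand PROS1 (0.49, SE 0.16, adjusted p = 0.046).

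**Figure D5:**
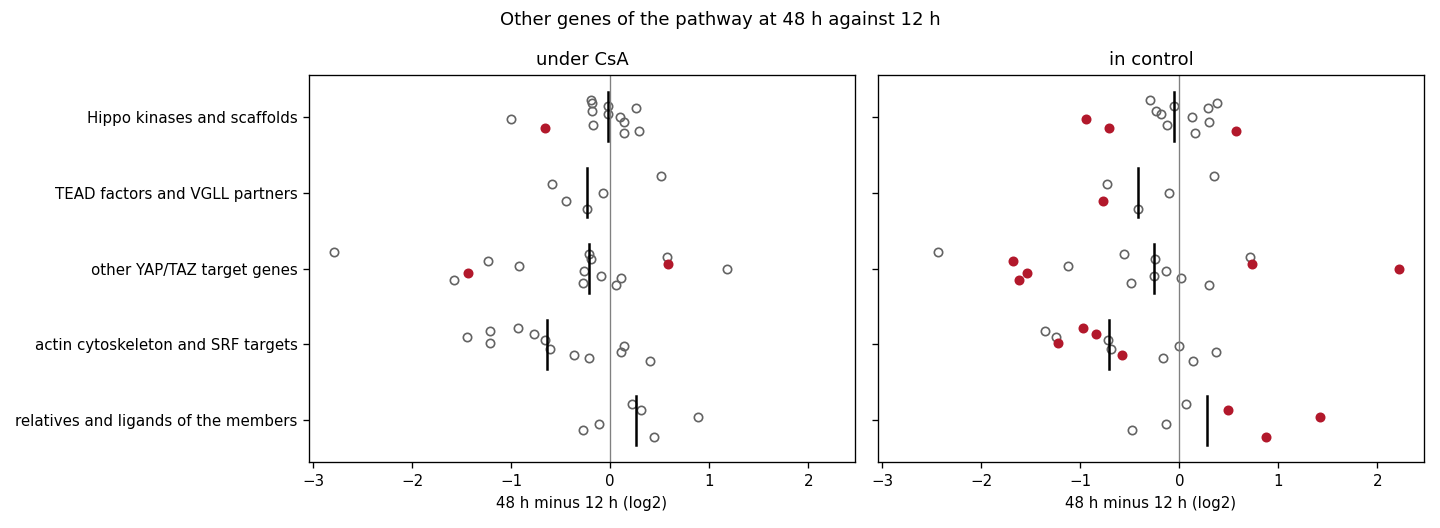
Log2 difference of 48 h minus 12 h for each tested gene of the 5 pathway lists, under CsA and in control, with filled red points where the adjusted p is under 0.05 and a bar at the list's median. The actin and SRF list has its median at -0.64 under CsA and -0.71 in control, and the other target genes have called members on both sides of 0 in each panel.

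MYOF, F3 and GADD45A kept their calls in control under all 27 alternatives, and MAP4K4 lost its call there in 1. The calls of the other list genes in control were lost in 9 to 18 of 27. Under CsA the calls were lost in 2 alternatives for MYOF, 4 for F3 and 8 for MAP4K4. For MAP4K4 under CsA single arrays that ended it were CsA 48 h replicate 1 (-0.52, adjusted p = 0.053 by limma) and CsA 12 h replicate 1 (-0.64, adjusted p = 0.063) or replicate 3 (-0.65, adjusted p = 0.065).

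CsA against control called 0 genes of these 5 lists at 48 h and 0 at 12 h, with or without the block. At 48 h the gene with the largest statistic in each list was TAOK3, a kinase upstream of Hippo (-0.54, SE 0.33), VGLL4 (0.21, SE 0.19), GADD45A (-0.74, SE 0.41, with 0.02, -0.11 and -2.14 in pairs 1 to 3), the LIM protein FHL2 (-0.31, SE 0.16) and CCN3 (-0.31, SE 0.23). At 12 h all 12 actin and SRF genes lay below 0 with a median of -0.09, against -0.01 for all genes, of which 45.5% lay above 0. Several of the 12 were close to 0, and none was called. The furthest was MRTFA, the actin-bound coactivator of SRF (-0.46, SE 0.26, adjusted p = 1.00 by limma), which differed by -0.42, -0.53 and -0.44 in the 3 pairs at 12 h. At 48 h 8 of those 12 genes lay below 0.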

How the data were processed

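The deposited log2 values were made by the authors with GCRMA, per the submitters' processing notes, with version, settings and genome build not given in the sources used here. GCRMA corrects background from each probe's sequence, makes the arrays' distributions equal and combines probes into a probe set value. The log2 scale was read from the values, which lie between 0.68 and 16.03 with array medians between 2.85 and 2.96. No further normalization was applied. Of 54675 probe sets, 62 controls were left out, 41091 had 1 symbol in the platform annotation, 1801 several and 11721 none. Arrays have no read depth, and their number limits the precision.

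limma 3.58.1 in R 4.3.3 fitted 4 group means over 12 arrays (8 residual degrees of freedom), with eBayes without a trend and two-sided tests. P-values were adjusted by Benjamini and Hochberg over 10650 genes, and the threshold was 0.05. The filter, above 4 on at least 3 of the 12 arrays, counted arrays of any group. Changes are differences of group means on the log2 scale with moderated standard errors. The fit was also run on simulated data, with independent arrays and the same SD for a gene on all 12 arrays. That setting had neither the wider spread at 48 h nor the numbered pairs, so it cannot check the fit for these.

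CsA and control arrays of the same number correlated in their deviations at 0.36, 0.52 and 0.59 at 12 h and at 0.78, 0.54 and 0.74 at 48 h, each best with its own number, and between -0.14 and 0.22 across times. The pairing within a time was found in the data, and the labels give no meaning to a number. The fit with that block left 4 residual degrees of freedom.

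Named genes were the 10 listed genes, up to 4 genes of each pathway list past the threshold in each direction and time comparison, or otherwise the 2 with the largest statistic, up to 2 per list for CsA, and for YAP1, CCN1 and CCN2 the 4 genes with the highest correlation. The members, lists and rule were chosen with earlier results of these data known. Sequences are from RefSeq (GRCh38.p14). Alternatives changed the block, the arrays fitted, the moderation, the filter, the probe set rule and the centring, and left out single arrays. Leaving out a numbered pair was chosen after seeing the data.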

Additional observations from a re-analysis of the deposited data

Results flagged for a closer look

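On the probe sets read, CCN2 and AJUBA lay lower under CsA than in control in all 3 numbered pairs at 48 h and higher in all 3 at 12 h. The other AJUBA probe sets past the filter differed by -0.48 and -0.42 at 48 h and by -0.16 and 0.11 at 12 h. The change of sign was thus not shared by all AJUBA probe sets. For CCN2 the CsA effect at 48 h minus that at 12 h was -0.61 on the log2 scale, and for AJUBA it was -0.53. The test of this difference called neither gene (limma with Benjamini-Hochberg adjustment, adjusted p = 1.00 for each, and 0.54 for each with the replicate block). The pair differences averaged -0.54 ± 0.40 at 48 h and 0.07 ± 0.06 at 12 h for CCN2, and -0.47 ± 0.31 at 48 h and 0.07 ± 0.05 at 12 h for AJUBA (SD, n = 3 pairs).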

How the results depend on the processing

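Under 26 to 28 alternatives for each comparison, 0 of the 9 listed genes were called for CsA against control at either time or for the difference of effects. Of 1793 recomputed values for named genes, 1495 kept their direction and their side of the threshold, 200 lost a call, 12 gained one and 86 changed sign, all 86 among values without a call. With the paired replicate block within a time limma called 0 listed genes for each CsA comparison. With time in control 2 listed genes were called; this became 0 in only the groups compared with a replicate block, 0 with no filter, 1 with arrays centred on their medians and 0 to 3 when arrays or numbered pairs were left out. Under CsA the count was 0, and it became 1 with the mean of a gene's probe sets and 0 to 2 with arrays or pairs left out. Over all genes the count called with time ran from 0 to 4527 under CsA (1496 as reported, 30 in the 6 arrays compared alone and 0 with their replicate block) and from 778 to 4881 in control (2749 as reported). Both of these highest counts came without numbered pair 3 at 48 h. The count for CsA against control at 12 h ran from 0 to 5. The cause was not tested.

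With the mean of a gene's probe sets, LATS2 changed sign for CsA at 12 h (-0.058), at 48 h (0.025) and in the difference of effects (0.083), and CCN1 with time in control (-0.075). With centred arrays WWTR1 changed sign for CsA at 48 h (0.020), YAP1 (0.016) and AMOTL2 (0.0044) in the difference of effects, and CCN1 with time in control (-0.027). Leaving out an array or a pair moved the following across 0. For CsA at 48 h the ranges were -0.10 to 0.076 for YAP1, -0.54 to 0.52 for WWTR1, -0.79 to 0.0051 for CCN1, -1.08 to 0.15 for CCN2, -0.32 to 0.19 for AMOTL2, -0.18 to 0.24 for LATS2 and -0.32 to 0.16 for AXL. For CsA at 12 h they were -0.070 to 0.0065 for YAP1, -8.9e-04 to 0.16 for CCN1, -0.040 to 0.20 for CCN2, -0.093 to 0.20 for LATS2, -0.063 to 0.19 for AXL and -0.047 to 0.19 for AJUBA. For the difference of effects they were -0.069 to 0.11 for YAP1, -0.48 to 0.58 for WWTR1, -1.15 to 0.085 for CCN2, -0.22 to 0.28 for AMOTL2, -0.22 to 0.22 for LATS2 and -0.39 to 0.086 for AXL. With time they were -0.13 to 0.34 for AMOTL2 and -0.23 to 0.18 for AXL under CsA, and -0.26 to 0.38 for CCN1, -0.72 to 0.38 for CCN2 and -0.18 to 0.26 for AMOTL2 in control. Values near the bottom of the scale, such as those of ANKRD1, allow no statement on change.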
